A study of Mus musculus with 46 samples.

Results

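Dividing microglia from 2 settings were compared by RNA sequencing: cells that refilled the brain of young adult mice after depletion, and cells of the growing brain at postnatal day 8 (PND8). The comparison rests on 4 of the 46 samples of the series, all from Ki67-positive cells and all among its 10 RNA libraries, and it was read across the 20999 genes of the deposited count table. Ki67 is a nuclear protein of cycling cells. Repopulating cells came from male C57BL/6 mice of the Ki67-rfp reporter genotype, taken at 75 days after a PLX5622 diet begun at 55 days and kept for 17 days, and then 3 days without the drug. PND8 cells came from male mice of the same strain and reporter genotype, taken at 8 days with no treatment. Each group had 2 libraries, which the labels call independent biological replicates, made from sorted cells; how many mice went into a library is not stated in the labels. The headers of the files call these cells Ki67-high, where the labels write positive. The groups differ in age, drug exposure and depletion at once, and these cannot be told apart. Ki67-negative cells from the same 2 settings (4 libraries) and microglia of wild-type adults without the reporter, taken at 90 days (2 libraries), are given beside the results where they bear on them. In bulk RNA, fewer cells of a type and less RNA per cell cannot be told apart.

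Microglia are the resident macrophages of the brain and depend on signals through the receptor CSF1R. PLX5622 blocks that receptor and removes most microglia, and the survivors divide and refill the tissue once the drug is withdrawn. In the first weeks after birth microglia also divide, and some of them then express growth factor, lipid and phagocytic genes that adult cells hold low. Type I interferon signalling, which runs from cell surface receptors through transcription factors to antiviral genes, is another programme that microglia can switch on.

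Levels are given as CPM, counts scaled to a common library size, and a gene was called when its edgeR adjusted p was under 0.05. The 4 libraries held 7137499 to 8816931 counts, and replicates correlated across genes at 0.990 in repopulation and 0.987 at PND8, where genes are not independent replicates. Microglial markers were high in all 4. Csf1r, which encodes the target of the drug, had 1545 and 1717 CPM in the repopulation libraries and 1458 and 1439 CPM in the PND8 libraries (log2 fold change 0.17, SE 0.124, edgeR adjusted p 0.329). PND8 replicate 2 and repopulation replicate 1 share a numeric code in the file headers that the labels do not explain, and the other 2 libraries have codes of their own.

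Of 12230 genes tested, 2040 (16.7%) were higher and 1738 (14.2%) were lower in repopulation, together 30.9%. The change was at least 2-fold for 719 of the higher and 461 of the lower genes, and at least 8-fold for 128 and 138. The median log2 fold change was 0.71 among higher genes, −0.58 among lower genes and 0.0025 over all genes tested. With library sizes alone as the scaling, calls turned to 1730 higher and 2222 lower, so the balance of directions depends on the scaling. These shares over all genes (16.7% higher, 14.2% lower, 30.9% called) are the background for the counts of each list below. Calls numbered 2430 without PND8 replicate 1, 2503 without PND8 replicate 2 2269 without repopulation replicate 1 and 2632 without repopulation replicate 2, and 1703 genes stayed called whichever of the 4 libraries was left out.

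**Figure D1:**
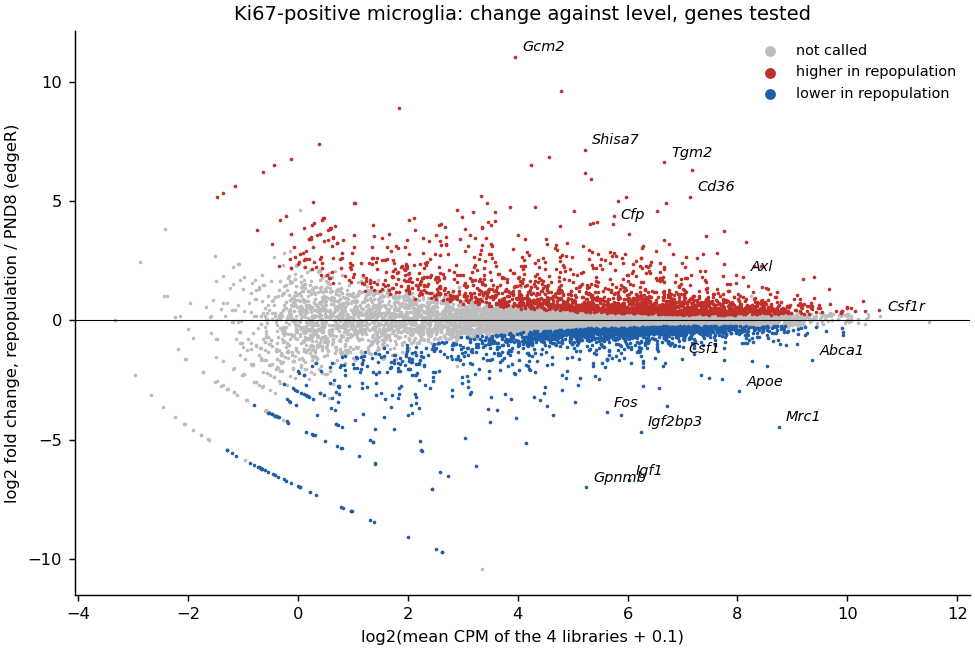
Each point is a gene tested; the x axis is log2 of its mean CPM over the 4 Ki67-positive libraries plus 0.1, the y axis its log2 fold change from PND8 to repopulation, red for called higher (2040 genes), blue for called lower (1738) and grey for not called. Gcm2, Shisa7 and Tgm2 lie at the top, Gpnmb, Igf1 and Mrc1 at the bottom, and Csf1r near 0.

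The largest rises were in genes that PND8 cells hardly expressed. Gcm2, a transcription factor known for parathyroid development (chromosome 13, 41101427 to 41109988, mm10), had 34.4 and 26.9 CPM in repopulation and no count in either PND8 library, at least 90.5-fold higher when PND8 is set at 3 counts per library (edgeR adjusted p 2.79e-07). Fbn2, the matrix protein fibrillin 2, had 48.8 and 61.6 CPM against 0 and 0.116, at least 163-fold higher on the same floor (edgeR adjusted p 1.01e-08). Both genes were also near 0 in adult microglia, at 0 and 0.611 CPM for Gcm2 and 0 CPM for Fbn2 in the 2 libraries. Shisa7, an auxiliary subunit of GABA-A receptors, rose from 0.661 and 0.347 to 77.1 and 71.4 CPM (log2 fold change 7.15, SE 0.294, edgeR adjusted p 1.56e-09). Spock1, a matrix proteoglycan, rose from 0.551 and 0.231 to 43.5 and 50.7 CPM (log2 fold change 6.84, SE 0.298, edgeR adjusted p 2.68e-09). For each of these genes both repopulation libraries lay far above both PND8 libraries, where the rule that picked them required no overlap.

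Tgm2, which encodes the crosslinking enzyme transglutaminase 2 (chromosome 2, 158116405 to 158146392), rose from 2.53 and 1.50 to 196 and 207 CPM (log2 fold change 6.62, SE 0.162, edgeR adjusted p 2.82e-11). St8sia1, which makes the ganglioside GD3, rose from 2.75 and 4.51 to 266 and 299.8 CPM (log2 fold change 6.28, edgeR adjusted p 1.34e-10). Cd36, a scavenger receptor for oxidised lipids, rose from 3.86 and 11.3 to 233 and 312 CPM (log2 fold change 5.17, edgeR adjusted p 2.23e-07). The adult levels differ between these 3 genes: adult microglia had 165 and 169.6 CPM of Tgm2, close to repopulation, but 5.67 and 6.97 CPM of St8sia1 and 2.20 and 1.22 CPM of Cd36, close to PND8. Notch4, a receptor of the Notch family, rose from 8.04 and 4.97 to 203 and 197 CPM, with 50.7 and 42.6 CPM in adults. Tnfsf13b, which encodes the B-cell survival factor BAFF, rose from 3.30 and 3.47 to 117 and 126 CPM, with 36.3 and 32.6 CPM in adults. The 6 remaining genes of the 15 with the largest rises above 20 CPM were Sh2d4b, Ccdc80, Ache, St14, Alcam and Csmd3, with log2 fold changes from 4.76 to 6.50. Of these, Ache encodes acetylcholinesterase, St14 a membrane serine protease and Alcam a cell adhesion molecule. Csmd3 was well above repopulation in adults, at 276 and 242 CPM against 45.8 and 30.9 CPM.

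The largest falls included genes of the neonatal activated state. Gpnmb, a membrane glycoprotein of phagocytes (chromosome 6, 49036518 to 49058182), fell from 72.0 and 77.9 to 0.347 and 0.864 CPM (log2 fold change −6.98, SE 0.363, edgeR adjusted p 1.4e-08). Igf1, an insulin-like growth factor, fell from 120.4 and 136 to 1.27 and 1.15 CPM (log2 fold change −6.70, SE 0.211, edgeR adjusted p 1.34e-10). Adult levels were 0.463 and 0.855 CPM for Gpnmb and 3.35 and 2.93 CPM for Igf1, near those of repopulation. Mrc1, the mannose receptor, fell from 834 and 814 to 41.3 and 33.7 CPM (log2 fold change −4.45, SE 0.158, edgeR adjusted p 3.71e-10), beside 49.7 and 52.7 CPM in adults. Igf2bp3, an RNA-binding protein of fetal tissues, fell from 129 and 160.2 to 4.63 and 6.91 CPM (log2 fold change −4.67, SE 0.179, edgeR adjusted p 7.76e-10), beside 2.54 and 2.81 CPM in adults. The groups of these 4 genes do not overlap, which the rule that picked them required. Groups did not overlap for 69% of all genes tested and for 3777 of the 3778 called.

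Other large falls were in Hpse, the heparan sulfate-cleaving enzyme heparanase (30.8 and 37.9 CPM at PND8, 0.810 and 1.15 CPM in repopulation), and in Sdc4, the heparan sulfate proteoglycan syndecan 4 (109 and 113 against 8.10 and 5.76 CPM). Apob (apolipoprotein B), Ptk7 (a Wnt co-receptor), Hif3a (a hypoxia-inducible factor), Pygm (muscle glycogen phosphorylase), Lrrc4 (a synaptic adhesion protein) and Gm13889 had log2 fold changes of −4.08, −4.27, −3.77, −3.41, −3.71 and −3.59. Ralgds, an activator of Ral GTPases, fell from 45.6 and 47.6 to 3.47 and 2.45 CPM (log2 fold change −3.95, SE 0.190, edgeR adjusted p 6.14e-09). Its adult level of 39.8 and 40.3 CPM lay close to PND8, unlike that of Gpnmb or Hpse. Fos and Egr1 complete the 15 genes and are described with the immediate early genes.

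**Figure D2:**
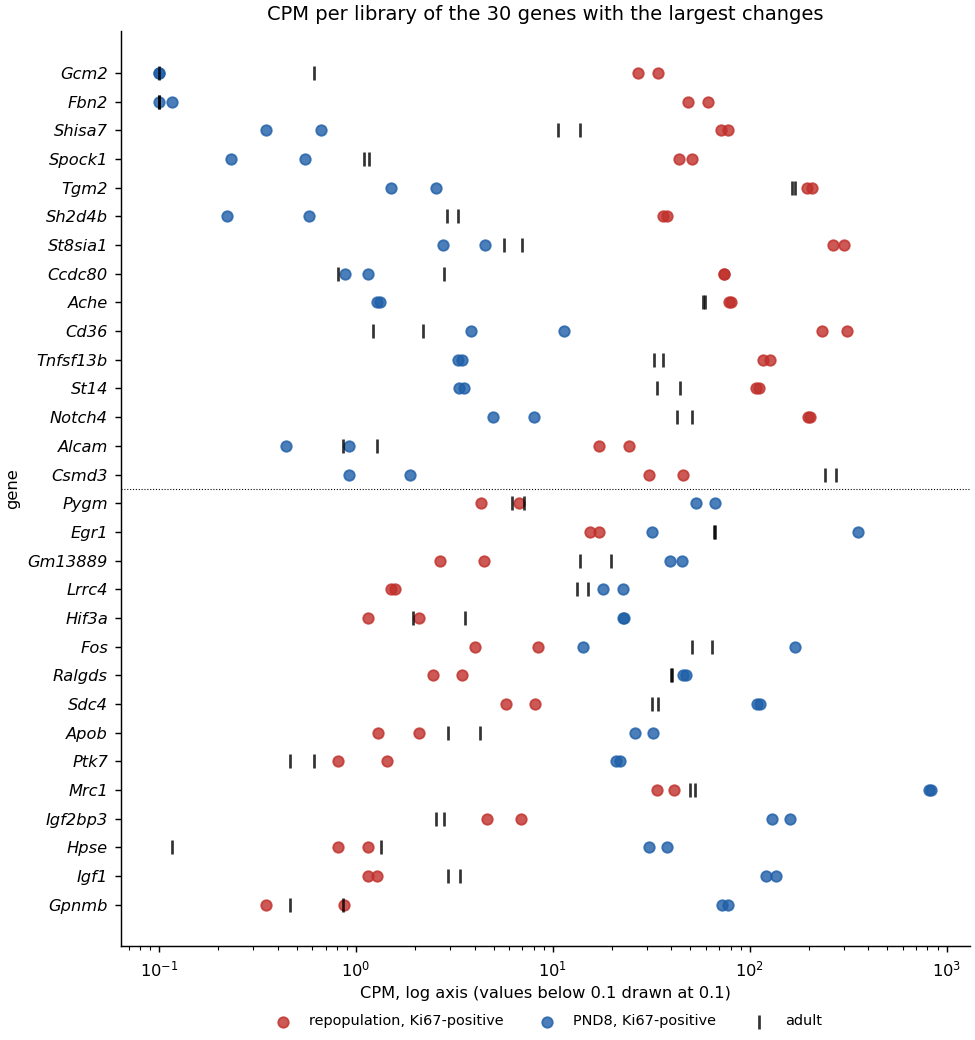
CPM on a log axis in each library for the 15 largest rises (above the dotted line) and the 15 largest falls (below it) among called genes with at least 20 CPM in the higher group: red, Ki67-positive repopulation; blue, Ki67-positive PND8; black ticks, adult. The red and blue points do not overlap for any gene, because the rule that picked the genes required it. The adult ticks of Tgm2 and Ache lie near repopulation and those of Ralgds and Lrrc4 near PND8. The 2 PND8 points of Fos and Egr1 lie far apart.

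Interferon-stimulated genes were higher in repopulation, from sensors and signalling genes to effectors, and this held in Ki67-negative cells as well. All 39 antiviral effectors tested of the 40 listed were called higher, with a median log2 fold change of 2.05 against 0.0025 for all genes and a range of 0.40 to 4.01, where 16.7% of all genes tested were called higher. Their summed level was 4780.3 and 5074 CPM in repopulation, 1738 and 1912 CPM at PND8, beside 1899 and 1927 CPM in adults, so that the PND8 and adult sums lay close together and the repopulation sums above both. In Ki67-negative cells 38 of the 39 were higher and 0 lower (median 2.26). Their sums there were 4940 and 5397 CPM in repopulation against 1743 and 1845 CPM at PND8. The sequence of 3 promoters is shown because these are the called interferon genes with the largest rises that hold the core of the interferon-stimulated response element, GAAANNGAA (N is any base), in their promoter. Each line gives 100 bases on the strand of the gene, 5′ to 3′, from RefSeq on GRCm38.p6, with matches on either strand in capitals; the stretches end 16, 81 and 49 bases before the start.
Oas3, chr5:120777675-120777774, minus strand: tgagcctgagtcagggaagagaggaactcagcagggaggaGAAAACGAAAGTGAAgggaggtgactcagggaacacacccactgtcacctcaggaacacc
Ifit3b, chr19:34607777-34607876, plus strand: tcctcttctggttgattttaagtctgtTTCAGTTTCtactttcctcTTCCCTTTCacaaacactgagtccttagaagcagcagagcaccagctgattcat
Ifit3, chr19:34583381-34583480, plus strand: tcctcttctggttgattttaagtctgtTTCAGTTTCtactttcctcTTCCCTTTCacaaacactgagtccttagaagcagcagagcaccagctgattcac
Each stretch held 2 matches, overlapping each other in Oas3 and separate, on the other strand, in the Ifit3 pair. The Ifit3 and Ifit3b stretches differ at 1 of 100 bases, and because the 2 genes are near copies, reads may have been split between them and their separate values are uncertain.

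Oas3, which makes the activator of RNase L, had 16.7 and 25.8 CPM in repopulation and 0.771 and 1.85 CPM at PND8 (log2 fold change 4.01, SE 0.382, edgeR adjusted p 4.01e-06). Ifit3, a binding partner of Ifit1 in antiviral complexes, had 53.1 and 54.7 against 6.61 and 4.74 CPM, and Ifit3b 9.37 and 14.0 against 0.771 and 1.27 CPM (log2 fold changes 3.24 and 3.49, edgeR adjusted p 1.07e-06 and 0.000166). Ifi44, another antiviral gene, had 5.09 and 9.07 against 0.881 and 0.462 CPM (edgeR adjusted p 0.000134). Both repopulation libraries were above both PND8 libraries for each of these genes, and groups did not overlap for 3777 of all 3778 genes called. The most abundant member, Lgals3bp, a secreted scavenger receptor protein, had 499 and 568 against 206 and 227 CPM (log2 fold change 1.30, edgeR adjusted p 1.4e-06). The GAAANNGAA core, on either strand of the 300 bases from 250 before to 50 after the start, was present for 16 of the 31 antiviral effectors with a promoter (51.6%), against 8.56% of all 32851 promoters and 7.03% of genes not called. Among genes called higher that are in no interferon list it was present for 124 of 1541 (8.05%).

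Upstream of the effectors, 12 of 17 receptor and signalling genes were called higher and 0 lower (median log2 fold change 0.48). Isg15, a ubiquitin-like modifier, and Usp18, the protease that removes it and restrains the receptor, had log2 fold changes of 2.80 (edgeR adjusted p 9.22e-05) and 2.72 (edgeR adjusted p 8.78e-08). Of the sensing genes, 9 of 16 were higher and 0 lower (median 0.56). In Ki67-negative cells, 12 signalling genes were higher and 0 lower (median 0.51), and 9 sensing genes higher and 1 lower (median 0.81). Zbp1, a sensor of Z-form nucleic acids, had 39.1 and 44.5 against 4.74 and 4.28 CPM (log2 fold change 3.21, edgeR adjusted p 9.12e-07). Irf7, the factor that amplifies interferon production, had 97.2 and 119 against 13.3 and 18.4 CPM (log2 fold change 2.77, edgeR adjusted p 5.51e-07). The RNA sensor gene Dhx58 rose by 2.24 on the log2 scale (edgeR adjusted p 2.86e-08).

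Of the interferon-inducible GTPases, which attack the vacuoles of intracellular pathogens, 11 of 14 tested were higher and 1 was lower (median 1.24). Fewer were called higher when any 1 of the 4 libraries was left out. Gbp4 had 20.7 and 20.4 against 2.09 and 2.66 CPM (log2 fold change 3.11, edgeR adjusted p 1.49e-06) and Gbp2 31.5 and 27.2 against 5.51 and 4.51 CPM (log2 fold change 2.55, edgeR adjusted p 1.41e-06). The exception was Gbp7, with 107 and 105 against 206 and 184 CPM (log2 fold change −0.88, edgeR adjusted p 0.000155). Genes of this family are similar in sequence, so reads may have been split between them.

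Antigen presentation genes were also higher. For MHC class I and its peptide loading, 14 of 19 genes were higher and 0 lower (median log2 fold change 0.61), where 16.7% of all genes were higher. The count was 9 without PND8 replicate 1, 9 without repopulation replicate 2 and 11 when the header code entered as a batch. Nlrc5, the transactivator of class I genes, had 144 and 138 CPM in repopulation and 21.9 and 34.3 CPM at PND8 (log2 fold change 2.33, SE 0.198, edgeR adjusted p 1.28e-06). The nonclassical class I gene H2-T23 had 144 and 160.1 against 50.7 and 48.9 CPM (log2 fold change 1.61, edgeR adjusted p 9.2e-08), and the loading factor gene Tapbp 388 and 410.4 against 279 and 289 CPM (log2 fold change 0.49, edgeR adjusted p 0.000463). The most polymorphic class I genes share sequence, and reads may be split between them.

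Class II genes did not all move one way: 6 of 10 were higher, 1 was lower and 3 were not called. The 3 not called, H2-Aa, H2-Eb1 and Ciita, had at most 2.09 CPM in any of the 4 libraries. The chaperone genes H2-DMa and H2-DMb2, whose products edit the peptides that class II molecules hold, had 193 and 217 against 60.6 and 60.0 CPM and 37.4 and 32.7 against 5.95 and 6.36 CPM (log2 fold changes 1.76 and 2.51, edgeR adjusted p 1.5e-07 and 2.94e-07). The class II chain gene H2-Ab1 had 37.0 and 27.9 against 10.4 and 8.44 CPM (log2 fold change 1.79, edgeR adjusted p 0.000345). Cd74, the invariant chain of class II molecules, fell, with 24.2 and 34.5 against 65.6 and 97.2 CPM (log2 fold change −1.48, edgeR adjusted p 0.00145).

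Neonatal and disease-associated activation genes were called in both directions. Of 30 genes, 16 were lower and 6 higher in repopulation (median log2 fold change −0.45). Several of the lower genes, such as Mamdc2, Colec12 and Fabp3, had few counts in repopulation and passed the filter on low counts through other libraries. For that reason no share is read from this list. Without PND8 replicate 1 the counts were 14 lower and 3 higher. Beside Gpnmb and Igf1, the lipid carrier gene Apoe fell from 482 and 446 to 52.0 and 66.9 CPM (log2 fold change −2.97, SE 0.127, edgeR adjusted p 2.45e-09), and its adult level of 149 and 173 CPM lay between. Spp1, which encodes osteopontin, fell from 207 and 219.8 to 67.1 and 96.1 CPM (log2 fold change −1.39, SE 0.147, edgeR adjusted p 1.04e-05). The falls were not shared by Axl, a receptor for dying cells and itself interferon-inducible, which rose from 99.8 and 142 to 392 and 469.7 CPM (log2 fold change 1.83, SE 0.215, edgeR adjusted p 2.69e-05). The pyrophosphate transporter gene Ank and the glycoprotein gene Cd52 rose by 1.21 and 1.10 on the log2 scale (edgeR adjusted p 3.32e-06 and 2.61e-05). Mamdc2 had 3.19 and 6.82 CPM at PND8 against 0.116 and 0 CPM in repopulation, at least 12.9-fold lower on the floor of 3 counts.

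Of 21 fetal growth and imprinted genes, 13 had enough counts to be tested, and 7 of those were lower and 0 higher in repopulation; those that passed only through PND8 had to differ, so no share is read from this list. Lin28b, a fetal regulator of let-7 microRNAs, had 4.52 and 5.55 CPM at PND8 against 0.116 and 0 CPM in repopulation, at least 12.9-fold lower (edgeR adjusted p 6.39e-05). Hmga1, a chromatin protein of growing tissues, fell from 64.8 and 59.0 to 33.0 and 42.0 CPM (log2 fold change −0.73, SE 0.141, edgeR adjusted p 0.00165). Adult levels were 0 and 0.122 CPM for Lin28b and 28.7 and 28.5 CPM for Hmga1.

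Border macrophage markers were lower in repopulation in 13 of 14 cases; most of these had few counts in repopulation and passed the filter on low counts through other libraries, so no share is read from the list. Border macrophages live in the meninges and around vessels and can be caught with microglia. The summed level of the list was 2086 and 2084 CPM at PND8 against 907 and 860.0 CPM in repopulation, and most of it came from Mrc1 and from Stab1, a scavenger receptor with 1172 and 1175 CPM at PND8 against 785 and 738 CPM in repopulation. The defining marker Lyve1 was low at PND8, at 3.74 and 5.78 CPM, and had no count in repopulation (edgeR adjusted p 0.000317, at least 12.2-fold lower). None of the 14 genes was at 0 in all 4 libraries. Siglec1, a sialic acid receptor of macrophages that interferon induces, went the other way, with 76.6 and 83.5 CPM in repopulation and 27.6 and 33.2 CPM at PND8 (log2 fold change 1.40, SE 0.147, edgeR adjusted p 1.04e-05). The part of border macrophages in the falls of Mrc1 and other genes was not tested.

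Markers of other cells differed as well. Erythroid genes, which hardly had counts in repopulation and passed the filter through PND8, summed to 64.8 and 23.7 CPM at PND8 against 0.810 and 1.01 CPM in repopulation, led by the haemoglobin gene Hba-a1 (17.8 and 6.47 against 0 and 0 CPM), listed at the same values as its near copy Hba-a2, so that the sum holds both. Of 8 monocyte markers tested, 5 were higher and 0 lower (3 higher without PND8 replicate 1, without PND8 replicate 2 or without repopulation replicate 1), and the sum was 113 and 138 CPM in repopulation against 39.2 and 41.7 CPM at PND8. Its largest parts were the adhesion genes Itga4 (45.9 and 54.1 against 16.7 and 21.0 CPM) and Fn1 (32.3 and 52.1 against 9.91 and 8.90 CPM), both also expressed by other cells, and Ms4a4c is in the antiviral list as well, while the defining marker Ly6c2 had no count in any of the 4 libraries. Astrocyte markers summed to 61.8 CPM in PND8 replicate 1, 376 CPM in PND8 replicate 2, and 411 and 422 CPM in repopulation. Nearly all of that was the glutamate transporter gene Slc1a3, at 38.7 and 362 CPM at PND8 against 398 and 411 CPM in repopulation, which was not called (edgeR adjusted p 0.323) but had a log2 fold change of 3.36 without PND8 replicate 2 (edgeR adjusted p 0.00689).

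The remaining marker lists gave few or mixed calls. Neutrophil markers had 1 of 8 tested higher and 0 lower, the one being Csf3r, which microglia also express and which held nearly all of the summed level. Of 12 lymphocyte markers, 7 had no count in the 4 libraries, and 1 of 2 tested was lower. Neuronal markers (1 higher and 1 lower of 3 tested) summed to at most 7.28 CPM in a library. Oligodendrocyte markers (3 higher and 2 lower of 7, with 0 lower without PND8 replicate 1 or either repopulation replicate) and endothelial and mural markers (2 higher and 1 lower of 5) summed to 162 to 252 CPM and 47.5 to 52.5 CPM. Genes of general myeloid identity were higher in 3 of 10 cases (1 without PND8 replicate 2) and lower in 0.

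Homeostatic microglial genes moved in both directions, with more rises than falls. Of 27 genes, 10 were higher, 3 lower and 14 not called (median log2 fold change 0.25), beside 16.7% higher and 14.2% lower over all genes. Without repopulation replicate 1 the count of higher genes was 6. P2ry12, a purinergic receptor, had 787 and 805 CPM in repopulation and 819 and 793 CPM at PND8 (log2 fold change −0.018, SE 0.117, edgeR adjusted p 0.927). Cx3cr1, the fractalkine receptor, and Sall1, a transcription factor of microglial identity, were not called either (log2 fold changes −0.16 and −0.12, SE 0.108 and 0.0967, edgeR adjusted p 0.275 and 0.393). Tmem119, a microglial membrane protein, rose from 502 and 494 to 717 and 813 CPM (log2 fold change 0.62, SE 0.107, edgeR adjusted p 0.000705), to the adult level of 776 and 794 CPM. Selplg, the ligand of P-selectin, rose from 479 and 445 to 832 and 922 CPM (log2 fold change 0.92, SE 0.111, edgeR adjusted p 3.3e-05), also to its adult level of 861 and 858 CPM. Upk1b, a tetraspanin, had 0.771 and 0.694 CPM at PND8, 20.0 and 14.4 CPM in repopulation and 154 and 146 CPM in adults (log2 fold change 4.54, SE 0.296, edgeR adjusted p 1.02e-07).

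The 3 homeostatic genes that fell were lower than in adult cells too. Crybb1, a crystallin, had 27.5 and 19.0 CPM in repopulation, 176 and 158 CPM at PND8, with 144 and 144 CPM in adults (log2 fold change −2.83, SE 0.168, edgeR adjusted p 4.51e-08). Gpr165, an orphan receptor, had 60.0 and 48.6, 269 and 265 and 215 and 195 CPM in the same order (log2 fold change −2.29, SE 0.201, edgeR adjusted p 1.78e-06). For Fcrls, an Fc receptor-like protein, the values were 321 and 294, 656 and 611 and 683 and 707 CPM (log2 fold change −1.04, SE 0.101, edgeR adjusted p 4.58e-06). In each case both repopulation libraries were the lowest of the 6.

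Lineage transcription factors moved in both directions, 8 higher and 7 lower of 28 (median log2 fold change −0.001). These counts were 4 and 4 without PND8 replicate 1, and 4 and 3 without repopulation replicate 2. Maf, a factor of macrophage identity, fell from 735 and 694 to 381 and 348 CPM (log2 fold change −0.97, SE 0.0944, edgeR adjusted p 4.75e-06). Runx3 rose from 0.661 and 1.16 to 6.13 and 12.5 CPM (edgeR adjusted p 0.000417), and Tfec, of the MiT family, fell from 17.5 and 12.3 to 2.89 and 1.30 CPM (edgeR adjusted p 3.78e-05). In the list of CSF, TGF-beta and growth signalling, 7 of 21 genes were higher and 3 lower (median 0.17), with 1 lower without PND8 replicate 2. Csf1, a ligand of CSF1R, fell from 199 and 182 to 62.2 and 62.2 CPM (log2 fold change −1.61, SE 0.105, edgeR adjusted p 1.02e-07), to the adult level of 64.1 and 61.2 CPM. The colony-stimulating factor receptor genes Csf3r and Csf2ra rose by 0.89 and 0.80 on the log2 scale (edgeR adjusted p 7.67e-06 and 7.67e-06), and Smad7, an inhibitor of TGF-beta signalling, by 0.58 (edgeR adjusted p 0.000955).

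Adhesion and chemokine receptor genes gave 13 rises and 5 falls among 26 tested (median 0.54). The rises were fewer when any 1 of the 4 libraries was left out. The falls numbered 3 without PND8 replicate 2 or without either repopulation replicate. Cd44, the hyaluronan receptor, had 45.3 and 50.2 CPM in repopulation, 13.3 and 18.5 CPM at PND8, with 5.20 and 4.28 CPM in adults (log2 fold change 1.59, SE 0.219, edgeR adjusted p 0.000111), and an antibody to its product was among the sorting stains. Itga4, an integrin chain, had 5.44 and 6.11 CPM in adults, below both other groups (log2 fold change 1.40, SE 0.159, edgeR adjusted p 1.97e-05). The chemokine receptor genes Cxcr2 and Cxcr3 had 11.8 and 14.1 and 4.19 and 5.90 CPM at PND8, and at most 3 counts in each repopulation library, at least 33.2-fold and 12.9-fold lower (edgeR adjusted p 3.22e-06 and 7.87e-05). Both passed the filter on low counts through other libraries.

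Inflammatory genes under NF-kB did not move together: 7 were higher, 2 lower and 15 of 24 not called, and the count of higher genes was 4 without either PND8 replicate. Cxcl16, a membrane-bound chemokine, rose from 26.9 and 38.0 to 133 and 139 CPM (log2 fold change 2.07, SE 0.160, edgeR adjusted p 5.51e-07), and the cytokine genes Il6 and Il1a rose by 1.93 and 0.99 on the log2 scale (edgeR adjusted p 0.00025 and 1.84e-05). The chemokine genes Ccl3 and Ccl4 fell, from 65.4 and 52.8 to 9.72 and 8.20 CPM and from 38.3 and 21.4 to 7.29 and 6.91 CPM (log2 fold changes −2.71 and −2.07, edgeR adjusted p 3.74e-08 and 0.000265). Complement genes split, 3 higher and 3 lower of 14. Cfp, which encodes properdin, the stabiliser of the alternative pathway, rose from 7.60 and 4.74 to 88.9 and 112 CPM (log2 fold change 4.02, SE 0.219, edgeR adjusted p 2.08e-08), with 6.13 and 7.70 CPM in adults. The central component C3 fell from 22.4 and 30.9 to 3.35 and 1.87 CPM and C2 from 14.3 and 16.8 to 1.04 and 2.73 CPM (edgeR adjusted p 9.39e-05 and 0.00022).

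Lipid genes were called in both directions. Of the lipid efflux and liver X receptor targets, 8 of 18 were lower and 3 higher (median −0.48), the latter count falling to 0 or 1 when any 1 of the 4 libraries was left out. Of the sterol synthesis genes, 10 of 23 were higher and 1 lower (median 0.38). Abca1, which exports cholesterol to lipoproteins, fell from 928 and 1072 to 376 and 257 CPM (log2 fold change −1.66, SE 0.165, edgeR adjusted p 5.7e-06), beside 935 and 913 CPM in adults. Apoc1, an apolipoprotein, had 11.8 and 11.6 CPM at PND8 against 0.231 and 0 CPM in repopulation, at least 30.0-fold lower (edgeR adjusted p 6.59e-06). Fdft1, squalene synthase, was the 1 sterol gene that fell (log2 fold change −0.58, edgeR adjusted p 0.00147). The count of higher sterol genes was 2 without repopulation replicate 2, 3 without PND8 replicate 1 and 4 when the header code entered as a batch.

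Glycolysis and hypoxia genes were higher in 9 of 24 cases and lower in 2 (median 0.088), beside 16.7% and 14.2% over all genes, among the higher ones the lactate exporter gene Slc16a3 (135 and 156 against 74.6 and 79.3 CPM, edgeR adjusted p 3.66e-05). The count of higher genes was 3 without PND8 replicate 1, 5 without PND8 replicate 2 and 4 without repopulation replicate 2. Lysosomal genes were higher in 8 and lower in 3 of 33 (median 0.21), a share of calls near the 30.9% over all genes; the higher count was 5 without PND8 replicate 1 and 4 without PND8 replicate 2 or repopulation replicate 2. The cysteine protease gene Ctsh rose from 87.2 and 95.4 to 320.4 and 347 CPM (log2 fold change 1.87, SE 0.102, edgeR adjusted p 2.15e-08), and Glb1, a galactosidase, by 1.09 on the log2 scale (edgeR adjusted p 1.09e-06). The protease gene Ctsl fell from 407 and 410.3 to 255 and 244 CPM (log2 fold change −0.71, SE 0.0819, edgeR adjusted p 2.24e-05). Atp6v0d2, a proton pump subunit of osteoclasts and macrophages, had 7.38 and 8.21 CPM at PND8, with no count in repopulation, at least 20.0-fold lower (edgeR adjusted p 0.000123).

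**Figure D3:**
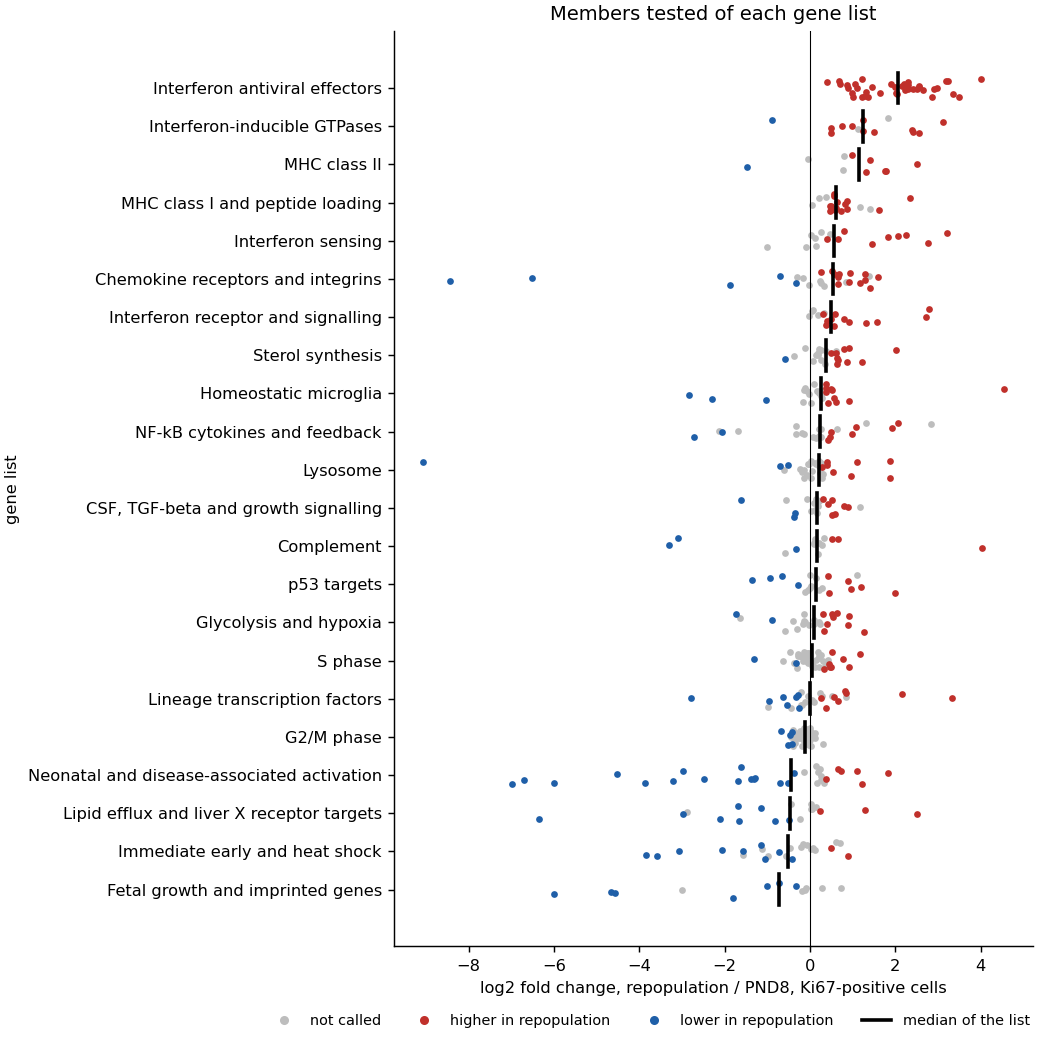
Log2 fold change from PND8 to repopulation (x axis) of each tested member of the 22 gene lists (rows, ordered by median); red, called higher; blue, called lower; grey, not called; black bar, median of the list. All points of the antiviral effectors lie right of 0, the cell cycle lists cluster around 0, and the leftmost points of the neonatal activation list are Gpnmb at −6.98 and Igf1 at −6.70.

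Without a term for the header code, most of the cell cycle genes listed were not called between the 2 settings. Mki67, the gene of the sorted protein, had 930.1 and 1087 CPM in repopulation and 919.6 and 1107 CPM at PND8 (log2 fold change −0.0073, SE 0.143, edgeR adjusted p 0.975). The DNA topoisomerase gene Top2a had 426 and 524 against 461 and 567 CPM (edgeR adjusted p 0.695), and the cyclin B1 gene Ccnb1 56.1 and 75.9 against 81.2 and 89.7 CPM (edgeR adjusted p 0.128). Ccnb1 was called lower under 4 alternatives, at −0.38 without the filter on low counts (edgeR adjusted p 0.0432), −0.72 with the header code (0.00102), −0.39 with the replicate block (0.0248) and −0.38 with only the 4 libraries (0.0412). The replication genes Mcm5 and Pcna had log2 fold changes of −0.038 and 0.047 (SE 0.178 and 0.170). Groups overlapped for Mki67, Top2a, Mcm5 and Pcna and not for Ccnb1.

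Of 53 G2/M genes, 5 were lower and 0 higher in repopulation (median −0.12). The count of lower genes was 13 with only the 4 libraries compared, 11 with the replicate block and 10 without the filter on low counts. Of 44 S phase genes, 8 were higher and 2 lower (median 0.047), beside 16.7% and 14.2% over all genes. In the same 3 settings the S phase counts were 10 higher and 2 lower, 11 and 3, and 11 and 4. The S phase counts were 2 higher and 1 lower without PND8 replicate 1, 3 and 1 without PND8 replicate 2, and 2 and 4 without repopulation replicate 2 (median −0.10). The cytoskeletal linker gene Gas2l3 fell from 161 and 162 to 100.4 and 102 CPM (log2 fold change −0.68, SE 0.0979, edgeR adjusted p 0.000167), and the kinetochore gene Cenpf from 298 and 379 to 228 and 243 CPM (log2 fold change −0.52, SE 0.126, edgeR adjusted p 0.00669), which was −0.36 without PND8 replicate 2 (edgeR adjusted p 0.0857). Cdc6, which loads the replicative helicase, and Ccne2, cyclin E2, rose by 1.18 and 0.90 on the log2 scale (edgeR adjusted p 0.0026 and 0.00481), and the uracil-DNA glycosylase gene Ung fell from 12.6 and 12.7 to 4.51 and 5.76 CPM (edgeR adjusted p 0.00242). These counts also changed with the header codes: when the code entered as a batch, 43 of 53 G2/M genes were lower (median −0.50) and 14 S phase genes lower against 2 higher, and Mki67, Top2a and Mcm5 were called at −0.30, −0.49 and −0.39 (edgeR adjusted p 0.0215, 0.00356 and 0.00217). Between the 2 libraries that share a code the G2/M median was −0.39, without repopulation replicate 1 it was 0.0084, and without repopulation replicate 2 it was −0.30. The count of lower G2/M genes was 2 without PND8 replicate 2 and 3 without repopulation replicate 1.

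Targets of p53 were higher in 6 of 19 cases and lower in 4 (median 0.15), and the latter count was 1 or 2 when any 1 of the 4 libraries was left out. The autophagy-linked gene Trp53inp1 rose from 57.6 and 51.6 to 142 and 108 CPM (log2 fold change 1.20, SE 0.182, edgeR adjusted p 0.000246), and Pmaip1, which encodes the cell death protein NOXA, fell from 24.0 and 27.6 to 11.9 and 8.06 CPM (log2 fold change −1.36, SE 0.219, edgeR adjusted p 0.000406).

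Immediate early and heat shock genes were lower in 9 of 24 cases and higher in 2 (median −0.52), and much of this came from 1 of the 4 libraries compared. Fos, an AP-1 subunit, had 170.1 and 14.2 CPM in PND8 replicates 1 and 2 and 8.44 and 4.03 CPM in repopulation (log2 fold change −3.85, SE 0.960, edgeR adjusted p 0.00829). Without PND8 replicate 1 its log2 fold change was −1.17 (edgeR adjusted p 0.326). Egr1, a transcription factor induced within minutes of a stimulus, had 355 and 32.0 CPM at PND8 against 15.4 and 17.1 CPM in repopulation (log2 fold change −3.58, SE 1.05, edgeR adjusted p 0.0192), and −1.01 without that library (edgeR adjusted p 0.526). Ier3 likewise went from −3.06 to −1.73 (edgeR adjusted p 0.0687), and the count of lower genes in the list from 9 to 2; it was 4 without repopulation replicate 2. PND8 replicate 1 is also the library with the low Slc1a3 level and the higher erythroid sum. Btg2, an antiproliferative gene, rose from 83.5 and 76.8 to 156 and 141 CPM (log2 fold change 0.89, SE 0.0942, edgeR adjusted p 1.04e-05).

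The deposited TPM is scaled by transcript length, so that levels of different genes can be set side by side. At most 3 tags were counted per position, which can hold down short, abundant transcripts, so the order of genes is approximate. The 5 most abundant genes called higher by this measure were Cst3, Psap, Sparc, Ctss and Cd81. Their mean TPM was 853, 594, 588, 579 and 515 in repopulation against 686, 474, 476, 462 and 392 at PND8. The genes encode cystatin C, the saposin precursor, a matrix glycoprotein, cathepsin S and a tetraspanin, and their log2 fold changes ran from 0.38 to 0.47. With each of the 4 libraries left out in turn, each of the 5 genes lost its call under at least 2 of the omissions; for Cst3 and Sparc all 4 omissions had that effect, with edgeR adjusted p up to 0.195 and 0.23. The 5 most abundant genes called lower were Selenop (338 against 543 TPM), Fcrls (222 against 480.3), Apoe (71.1 against 575), Ctsb (242 against 361) and Ltc4s (252 against 346). Selenop carries selenium, Ctsb is cathepsin B and Ltc4s makes leukotriene C4, and their log2 fold changes were −0.61, −0.50 and −0.39. Ltc4s lost its call without PND8 replicate 1 (edgeR adjusted p 0.0694).

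The level in adult microglia places the changes. The contrast did not set adults against either group, but the adult libraries entered the filter, the scaling and the estimate of the spread behind the calls. Of the 2040 genes called higher, the adult mean on a log2(CPM + 0.5) scale was nearer to repopulation for 1213 (59.5%) and nearer to PND8 for 827. Among the 719 at least 2-fold higher it was nearer to repopulation for 370 (51.5%), and among the 8452 genes not called for 4465 (52.8%). Of the 1738 called lower, it was nearer to repopulation for 919 (52.9%) and nearer to PND8 for 819. Adults lay below both groups for 437 of the higher genes, such as Cd36 and Itga4, and above both for 711, such as Csmd3 and Upk1b. Among lower genes adults lay above both groups for 391 and below both for 484. Such counts were not made for genes not called, so they are not read as a trait of the called genes. The adult libraries come from mice without the reporter and share a header code with no other library, so the adult level cannot be told apart from those differences.

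The histone mark H3K27ac at gene starts followed the RNA for a minority of genes. H3K27ac, an acetylated histone found at active regulatory DNA, was mapped in Ki67-positive cells of both settings (2 libraries each) from wild-type mice, where fixed cells were sorted with a Ki67 antibody. Per the labels, the repopulation mice for the mark were 90 days old with the diet begun at 70 days, where the file headers say PND80. A region of the authors' lists covered the start of the gene in both repopulation libraries and in no PND8 library for 54 of 2040 genes called higher (2.65%, exact Clopper-Pearson 95% interval 1.99 to 3.44), 5 of 1738 called lower (0.288%, 0.0935 to 0.67) and 25 of 8452 not called (0.296%, 0.192 to 0.436). The opposite pattern, both PND8 and no repopulation library, held for 17 higher genes (0.833%), 52 lower genes (2.99%, 2.24 to 3.91) and 71 not called (0.84%). Intervals cover counting error over genes only. For 67.1% of higher and 67.3% of lower genes the start was covered in all 4 libraries.

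The share was larger among genes with larger RNA changes: the mark was in repopulation alone for 6.82% of genes at least 2-fold higher, and at PND8 alone for 8.24% of genes at least 2-fold lower. Among the 15 genes with the largest rises, 8 had the mark at the start in both repopulation libraries and in neither PND8 library: Gcm2, Fbn2, Tgm2, St8sia1, Ache, St14, Notch4 and Csmd3. None of the 15 had the opposite pattern. Among the 15 largest falls, 6 had the mark in both PND8 and no repopulation library, namely Igf1, Igf2bp3, Sdc4, Ralgds, Gm13889 and Pygm, and so had Apoe. Of the antiviral effectors, 22 of 39 carried the mark in all 4 libraries, 4 in both repopulation libraries alone and 5, Oas3 included, in none. The numbers depend on single lists. With 1 list left out, a single library stands for its setting, so the pattern is easier to meet for any gene. Shares of genes not called are not given for these omissions, so a larger share is not read as closer agreement with the RNA. Without repopulation H3K27ac replicate 1, which shares a header code with PND8 H3K27ac replicate 2, the share of lower genes with the mark at PND8 alone was 9.84%, and without PND8 H3K27ac replicate 2 the share of higher genes with the mark in repopulation alone was 5.49%; leaving out repopulation H3K27ac replicate 2 gave 4.55% and 4.41%, and leaving out PND8 H3K27ac replicate 1 gave 4.72% of lower genes.

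Open chromatin was mapped by ATAC-seq with 1 library a setting, so with no replicate check. A peak covered the start in repopulation alone for 8.58% of higher genes, 6.56% of lower genes and 6.64% of genes not called, and in PND8 alone for 7.16%, 7.25% and 7.18%. The build of the ATAC lists is not named in their headers, and mm10 was assumed as for the other files. Tgm2 and St8sia1 were among the genes with a peak in repopulation alone.

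**Figure D4:**
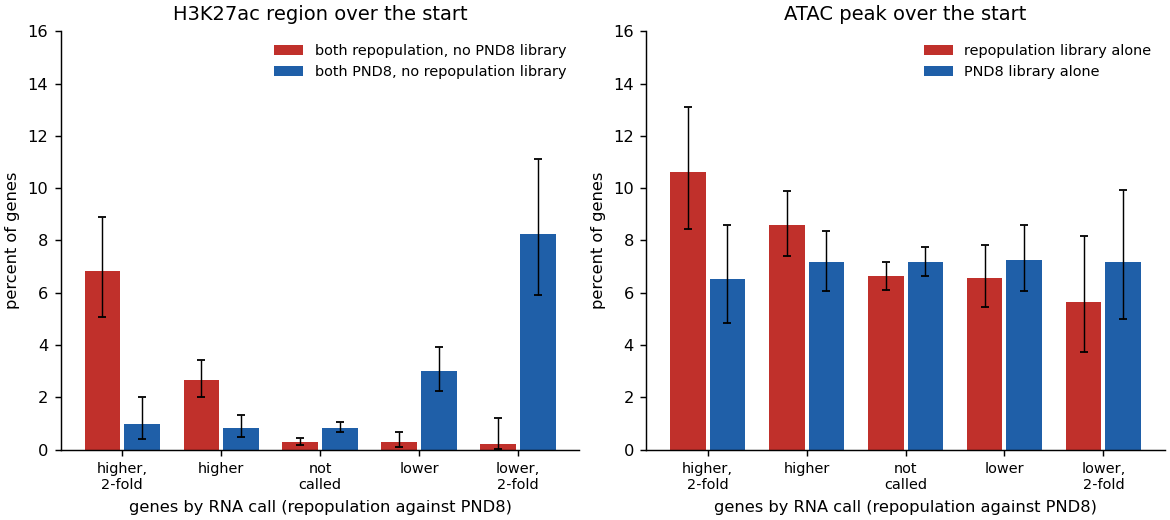
Percent of genes, by RNA call, whose start was covered in one setting and not the other: left, H3K27ac regions in both libraries of one setting and none of the other; right, ATAC peaks, 1 library each; bars start at 0, and error bars are exact 95% binomial intervals over genes. H3K27ac in repopulation alone is most frequent among higher genes and H3K27ac at PND8 alone among lower genes, while the ATAC bars lie between 5.64% and 10.6%.

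The same contrast in Ki67-negative cells called 4473 of 12230 genes (36.6%). Of the 3778 genes called in Ki67-positive cells, 3014 were called there with the same sign and 0 with the opposite sign, which is 79.8% of the calls in positive and 67.4% of those in negative cells. Log2 fold changes of the 2 gates correlated across the 12230 genes at r 0.861 and rho 0.814; the positive and negative libraries of a replicate share a header code and genes are not independent replicates. The test of the difference between the 2 contrasts called 0 genes by edgeR, with 613 at an unadjusted p under 0.05 and 3 genes by DESeq2. That fit ignores that deviations of same-numbered positive and negative libraries correlated across genes, at 0.263 in repopulation and 0.338 at PND8. With the header code as a term, which pairs them, 28 genes were called and 1283 had an unadjusted p under 0.05. Without a code term, the 3 smallest p belonged to Slc2a6, Spp1 and Fam129a. Slc2a6, a glucose transporter gene, had 96.1 and 108 CPM in repopulation and 16.5 and 17.0 CPM at PND8 in Ki67-positive cells, and 98.6 and 121 against 3.22 and 6.05 CPM in Ki67-negative cells (difference of log2 fold changes −1.90, SE 0.273, edgeR adjusted p 0.106). For Spp1 the negative cells had 38.0 and 47.2 against 238 and 279.7 CPM, a difference of 1.22 between the contrasts (SE 0.211, edgeR adjusted p 0.285). For Fam129a, a stress-response gene, it was −1.01 (SE 0.178, edgeR adjusted p 0.285). None of these passed the threshold without that term.

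**Figure D5:**
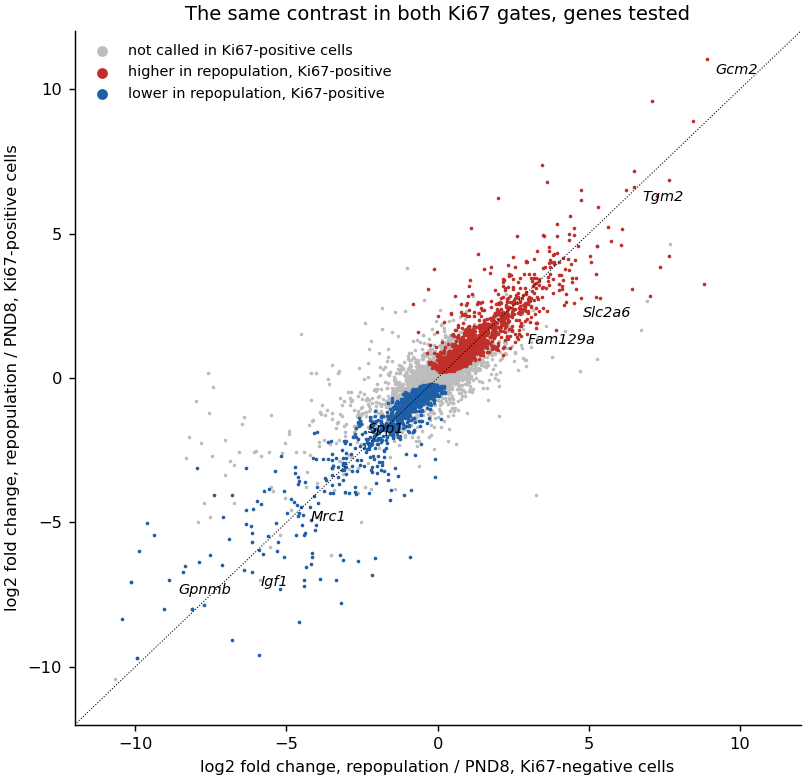
Log2 fold change from PND8 to repopulation in Ki67-negative cells (x axis) against the same in Ki67-positive cells (y axis) for the 12230 genes tested; colours give the call in Ki67-positive cells and the dotted line marks equal change. Called genes follow the line, and Slc2a6, Fam129a and Spp1, with the smallest p for a difference, lie off it.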

How the data were processed

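Counts and TPM were deposited by the authors as tables of 20999 genes made with HOMER over mm10 exons, 1 transcript per gene, with at most 3 tags counted per position, per the file headers; that cap can hold down short, abundant transcripts. The submitters' processing notes also name STAR 2.7.0f and HOMER 4.11; the strand setting of counting is not given in the sources used here. Libraries were polyA-selected and stranded, per the labels. Peak lists were deposited per library; their normalised signal (coverage per 10000000 tags) and the authors' score per region were used only to rank regions within a list, per the file headers.

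Raw counts entered edgeR 4.0.16: filterByExpr, TMM scaling, 1 quasi-likelihood fit of all 10 RNA libraries with a term per group (5 residual degrees of freedom), Benjamini-Hochberg adjustment over the 12230 genes. CPM used TMM-scaled sizes. A group with at most 3 counts in each library was taken as at the floor. On simulated counts the code was tested before use. DESeq2 1.42.0 and limma on log2(TPM + 1) were alternatives; for 4532 genes the TPM table names another transcript. Gene starts were compared with regions by position, and promoters, from RefSeq on GRCm38.p6, were matched for 16340 genes by the nearest start.

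Genes named came from a rule: a fixed panel, the 15 largest called changes in each direction with at least 20 CPM and no overlap, the leading called members of each list, the 5 highest TPM in each direction and the 3 smallest interaction p. Not every gene of the rule is printed, and some results are not reported here. The lists and the rule were chosen with earlier results of these data known. P-values rest on a spread between replicate libraries that was pooled over the 5 groups of 2 libraries and moderated across genes, not on the 2 groups compared alone.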

Additional observations from a re-analysis of the deposited data

How the results depend on the processing

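Calls in Ki67-positive cells numbered 3778; they were 1180 with a change of at least 2-fold required, and 2269 to 2632 when 1 of the 4 libraries compared was left out. All other settings lay within 1.5 times, with 1685 higher and 2095 lower by limma on log2(TPM + 1). With the replicate number as a block 4362 genes were called (2290 higher, 2072 lower); deviations of same-numbered libraries correlated at only 0.0471 across genes between the 2 groups, so the numbers do not pair repopulation with PND8. Within a setting same-numbered positive and negative libraries, which share a header code, did deviate together (0.263 and 0.338), and the header code fit pairs them. In Ki67-negative cells 1408 of 4473 calls were at least 2-fold, and leaving out 1 library gave 2869 to 4725. The difference between the gates, 0 genes, became 52 without the filter on low counts (where edgeR's prior degrees of freedom were infinite against 8.27, so no gene kept a spread of its own), 28 when the header code entered as a batch, 2 with the replicate block, 3 by DESeq2, 2 by limma on log2(TPM + 1) without a filter, and 0 to 71 when 1 library was left out.

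With the 15000 strongest H3K27ac regions, the marked shares were 3.53% of higher and 6.33% of lower genes, and leaving out 1 list gave 2.89% to 5.49% and 3.39% to 9.84%. Leaving out a list makes the pattern easier to meet for any gene, and shares of genes not called are not given for these settings. ATAC shares fell to 4.71% of higher and 2.13% of lower genes within 500 bp of the start, and with 50000 peaks the first was 7.21%. Signs of these named genes turned. Pcna was −0.0197 with library sizes only, −0.25 with the header code and −0.035, −0.0356 and −0.035 by the 3 limma fits. P2ry12 was 0.0268 with the header code. Leaving out 1 library gave −0.16 to 0.11 for Mki67, −0.28 to 0.018 for Top2a, −0.32 to 0.18 for Mcm5 and −0.18 to 0.23 for Pcna. Medians turned in 7 lists. For S phase genes (0.047) they were −0.019 with library sizes only, −0.21 with the header code, −0.033, −0.033 and −0.033 by limma, −0.13 within the shared code, and −0.1 to 0.24 when 1 library was left out. For p53 targets they were −0.0098 with the header code, −0.019, −0.057 and −0.019 by limma and −0.084 within the shared code. For lineage factors (−0.001) they were 0.00039 without the filter, 0.079 with the header code, 0.042 within the shared code, and −0.038 to 0.035 when 1 library was left out. The G2/M median was 0.0084 without repopulation replicate 1. The others were neutrophil (0.89 with only the 4 libraries), astrocyte (0.15 with the header code) and sex markers (−0.04; 0.12 with the header code, 0.028 without repopulation replicate 2, 0.032 within the shared code). The cause was not tested. Values within the shared code were chosen after seeing the data.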
